A study of Mus musculus with 23 samples.

Results

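Mouse chromosome 4 carries, within a stretch around the tumour suppressor gene Cdkn2a, the 6 genes described here: Cdkn2a, Cdkn2b, Mtap, Focad, Mllt3 and Dmrta1. They were picked from 36793 measured genes because Cdkn2a and Mtap were nearly without reads in the cultured SCCVII tumour line. The levels of that line are therefore given as a description, with no test. What was tested is how the genes differed among the other cells, for which the genes were not picked. The tests were nonetheless set with earlier results of these data known. Fits that hold the lines also took part of their spread from the SCCVII line.

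Cdkn2a encodes a pair of unrelated proteins by reading shared exons in different frames. The protein p16Ink4a inhibits the cyclin D kinases Cdk4 and Cdk6 and so keeps the retinoblastoma protein active, while p19Arf binds Mdm2 and so stabilises p53. Cdkn2b, next to it, encodes p15Ink4b, another inhibitor of the same kinases. Mtap encodes methylthioadenosine phosphorylase, which returns methionine and adenine from a by-product of polyamine synthesis, and in human cancers it is often deleted together with CDKN2A. In tumours that carry human papillomavirus (HPV), high p16 is a routine marker of virus that disables the retinoblastoma protein. Focad encodes focadhesin, known in human cells to stabilise the SKI complex of RNA decay. Mllt3 (AF9) reads modified histones for the super elongation complex and the DOT1L complex, and Dmrta1 belongs to the DM-domain family of transcription factors.

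RNA sequencing covered 23 libraries in 8 groups, with 3 libraries a group except SCCVII colonies with 2. Macrophages (CD45+, CD11b+, Gr1-, high F4/80) were sorted from implanted head and neck tumours, each library a pool of 3 to 4 mice, and the tumour lines were aliquots of cultured cells. Colonies came from sorted macrophages cultured for 9 days in medium made for blood stem cells. The models were SCCVII, a squamous carcinoma line in C3H/HeJ mice, and MEER, Ras-transformed oropharyngeal epithelial cells in C57/Bl6 mice, either with papillomavirus oncogenes (HPV+ MEER) or without (HPV- MEER). Groups were thus SCCVII and HPV- MEER colonies, macrophages of the 3 models, and the 3 lines. SCCVII differs from MEER in strain as well as in tumour, and these cannot be told apart in any comparison of the models. Each line is a single culture source, so p-values between lines measure only the spread between aliquots, which may be technical. Viral status likewise cannot be told apart from any other difference between the HPV+ and HPV- MEER lines. HPV- MEER colonies alone were deposited in a separate table, and any effect of that cannot be told apart in comparisons that use them. Levels are CPM, counts set against library size and scaled by TMM, or TPM, which also allow for transcript length, where genes are compared with each other or cell markers are given. A gene counts as changed at an adjusted p under 0.05 in edgeR's quasi-likelihood test with Benjamini-Hochberg adjustment over all genes tested.

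Libraries held 26848759 to 47609481 expected counts. The macrophage libraries had 7207 to 21450 TPM summed over 8 macrophage markers, with all 8 markers at 1 TPM or more. Of the colonies, HPV- MEER libraries 2 and 3 and SCCVII library 2 were low in the macrophage markers Ptprc and Csf1r. Summed over all 8 macrophage markers they held 1581, 89.8 and 1490 TPM, with 7, 3 and 7 of the 8 at 1 TPM or more. HPV- MEER colony 1 and SCCVII colony 1 held 17970 and 15900 TPM, and the lines 15.8 to 46.3 TPM. By this sum HPV- MEER colony 3 came nearest the lines. Ptprc (CD45) stood at 1.14 and 0.16 TPM in those HPV- MEER colonies and at 1.14 TPM in that SCCVII colony, against 153 to 207 TPM in the macrophages of these models. Csf1r stood at 2.43, 0.31 and 3.40 TPM in the same 3 colony libraries. HPV- MEER colony 1 (57.0 TPM Ptprc, 288 TPM Csf1r) and SCCVII colony 1 (29.5 and 30.5 TPM) held more. Of the other macrophage markers, Itgam and Adgre1 stood at 14.0 and 60.5 TPM in SCCVII colony 1. SCCVII macrophages held 708 to 818 and 456 to 508 TPM of these, and HPV- MEER colony 1 held 376 and 779 TPM. Lyz2 made up most of the SCCVII colony 1 sum, at 14857 TPM, against 14769 to 16817 TPM in SCCVII macrophages. Mertk was not lower there either (27.14 TPM, against 20.45 to 26.19 TPM). All 5 colony libraries held Krt8 and Col1a1, at 72.0 to 260 and 75.0 to 144 TPM. The colony comparisons below are therefore also given without the 3 libraries low in Ptprc and Csf1r together, called the low-marker colonies. In the lines the epithelial markers Krt8 and Krt18 stood at 139 TPM or more, while Krt5 was at 0.06 TPM or less in all 9 libraries. Epcam reached 3.36 TPM or more in the HPV+ MEER line alone among the lines, with 0 in SCCVII and at most 0.10 TPM in HPV- MEER.

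The genes lie on chromosome 4 of GRCm38. Running outward from Cdkn2a (ENSMUSG00000044303, chr4:89274471-89294653, minus strand), Cdkn2b (ENSMUSG00000073802) is at chr4:89306299-89311039 on the minus strand and Mtap (ENSMUSG00000062937) at chr4:89137122-89181081 on the plus strand. Dmrta1 (ENSMUSG00000043753) is at chr4:89679436-89694772, Focad (ENSMUSG00000038368) at chr4:88094629-88411011 and Mllt3 (ENSMUSG00000028496) at chr4:87769925-88033364. All 6 are protein-coding. Focad shares 14868 bases with Hacd4 on the opposite strand, and since the strand setting of the counting is not given in the sources used here, reads could have passed between them. Hacd4 averaged 119 CPM in HPV- MEER macrophages and 6.07 CPM in the HPV- MEER line, so Focad levels in macrophages are the more exposed to this.

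A count for Cdkn2a does not say which of its proteins the RNA encodes, since the transcripts differ by their first exon. The junctions of exon 1 with exon 2 in GENCODE M21 transcripts are shown to make that plain, with 30 bases on either side, exon 1 in lower case and the shared exon 2 in capitals. Exon 1-alpha (p16Ink4a, ENSMUST00000060501) spans chr4:89281986-89282192 and exon 1-beta (p19Arf, ENSMUST00000107131) spans chr4:89294334-89294653, both on the minus strand, with starts 12.5 kb apart. Both join exon 2 at chr4:89276645-89276985.
exon 1-alpha to exon 2: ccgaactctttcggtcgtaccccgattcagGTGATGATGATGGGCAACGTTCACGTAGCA
exon 1-beta to exon 2: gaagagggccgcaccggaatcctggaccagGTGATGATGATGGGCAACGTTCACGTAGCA
The capitals are identical in both, so a read inside exon 2 fits either transcript, and only reads that reach exon 1 separate them.

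In the SCCVII line, the genes for p16Ink4a, p19Arf and p15Ink4b had almost no reads. Cdkn2a had 0, 0 and 1 counts in the 3 SCCVII line libraries, against 7094, 6776 and 5253 counts in the HPV+ MEER line and 1367, 2647 and 3495 counts in the HPV- MEER line. Cdkn2b had 1, 0 and 1 counts in the SCCVII line, against 3313, 2688 and 2058 in the HPV+ MEER line and 319, 594 and 893 in the HPV- MEER line. Mtap had 4, 4 and 2 counts in the SCCVII line, against 6948, 8077 and 8948 in the HPV+ MEER line and 5716, 7134 and 6484 in the HPV- MEER line. For each of the 3 genes every SCCVII line library lay far below every MEER library. Scaled for library size, Mtap in SCCVII stood at 0.0461% of its HPV+ MEER level (95% interval 0.0221 to 0.0848%) and 0.0559% of its HPV- MEER level (0.0268 to 0.103%), exact intervals that cover counting error only.

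Focad and Mllt3, the genes farthest from Cdkn2a among the 6, were present in the SCCVII line. Focad had 655, 639 and 531 counts in SCCVII, which was 83.7% of the HPV+ MEER and 57.6% of the HPV- MEER level. Mllt3 had 1089, 1006 and 889 counts, or 38.4% of the HPV+ MEER and 42.2% of the HPV- MEER level. Dmrta1 had no count in any SCCVII line library, against 3, 3 and 1 counts in the HPV+ MEER line and 4, 18 and 12 in the HPV- MEER line. Its 34 counts in the HPV- MEER line put the SCCVII line at least 10.5-fold lower, taken against 3 counts summed over the group.

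**Figure D1:**
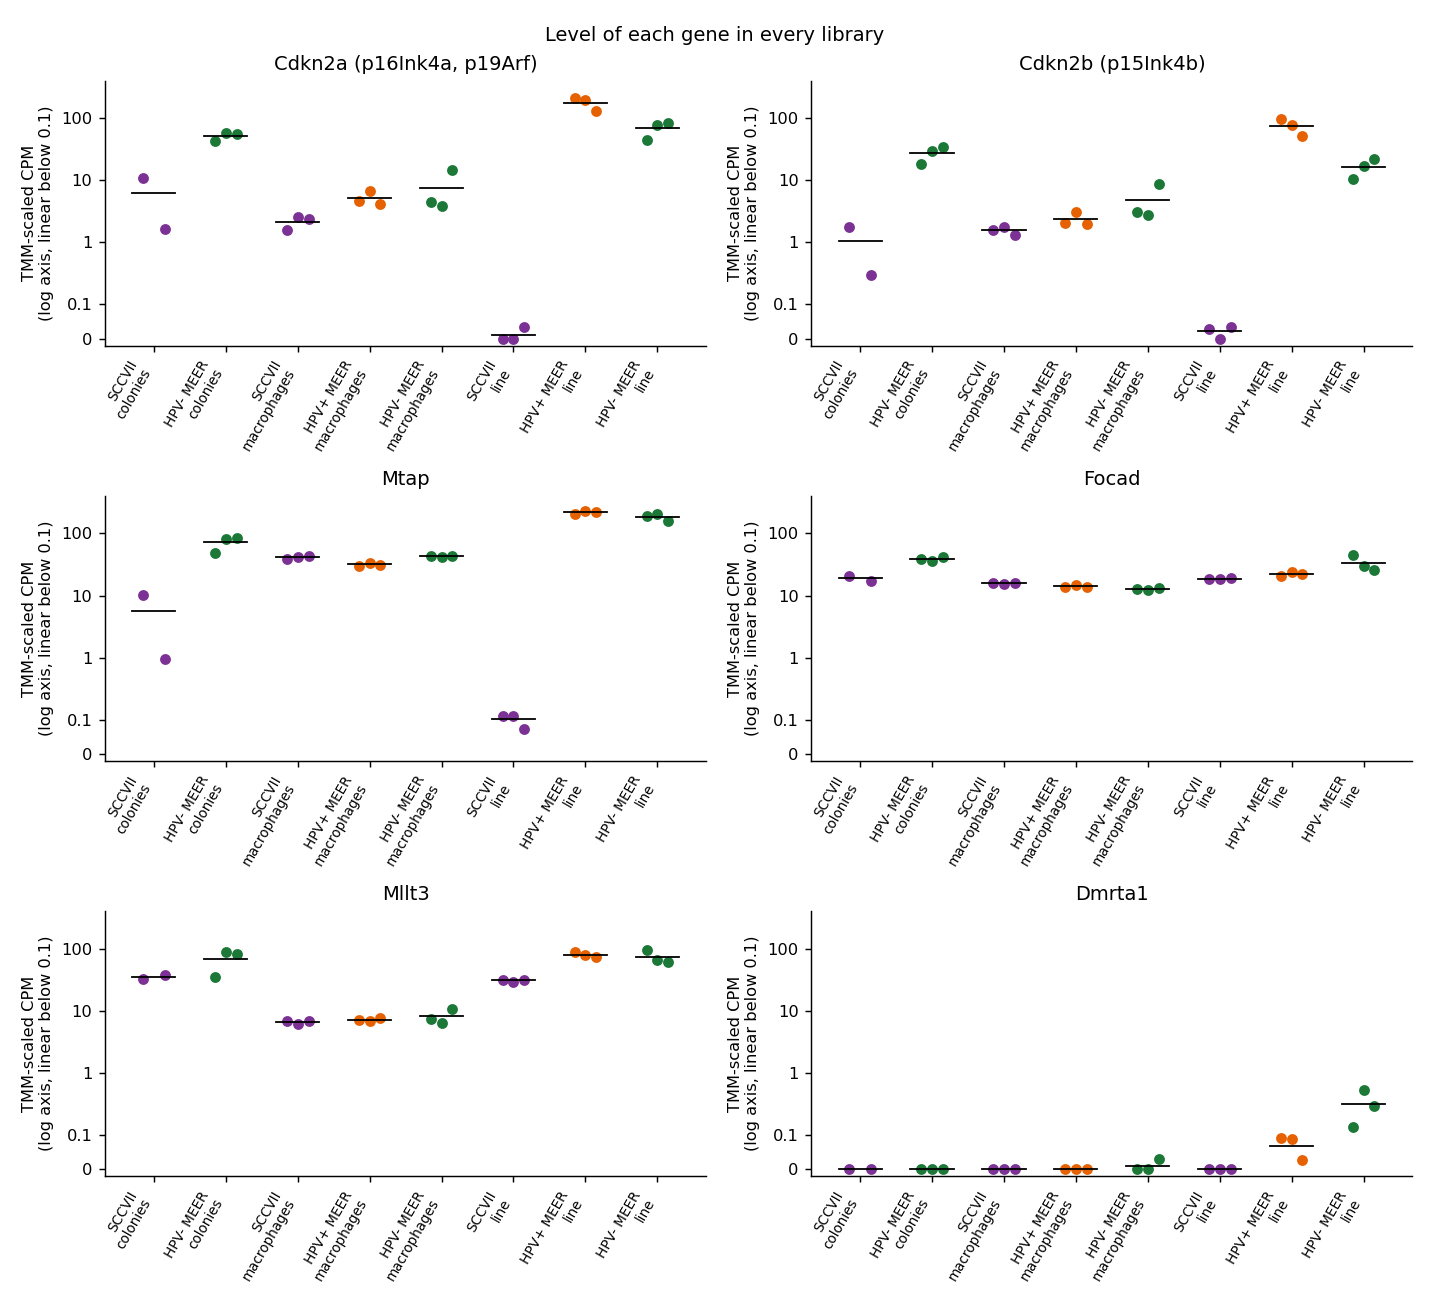
TMM-scaled CPM of each of the 6 genes in every library (points) with the group mean (line), on a log axis that is linear below 0.1 CPM. Cdkn2a, Cdkn2b and Mtap sit at or near 0 in the 3 SCCVII line libraries while Focad (18.7 CPM) and Mllt3 (30.6 CPM) do not, and all macrophage groups hold the first 3 genes.

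The macrophages sorted from SCCVII tumours had the RNA that the SCCVII line lacked. Cdkn2a had 46, 77 and 70 counts, Cdkn2b 47, 54 and 38 counts, and Mtap 1148, 1284 and 1281 counts in those macrophages. These are host cells of the C3H/HeJ strain, so reads of these genes from that strain were counted. Against them the SCCVII line stood at 0.471% for Cdkn2a (95% interval 0.0119 to 2.66%), 1.31% for Cdkn2b (0.157 to 4.82%) and 0.245% for Mtap (0.117 to 0.451%).

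The neighbours of these genes place them in a wider stretch with few reads in the SCCVII line. Of 121 annotated genes within 5 Mb of Cdkn2a, 23 reached a mean of 1 CPM in any group and 17 did so in both MEER lines. In the SCCVII line 7 of those 17 were under 5% of the lower MEER line: Klhl9, Wincr1, Gm12602, Mtap, Cdkn2a, Cdkn2b and Elavl2. Cdkn2a and Mtap among them were part of the choice. The share of all genes under the same rule was not worked out, so the 7 of 17 are a description only. Klhl9, an adaptor of a Cul3 ubiquitin ligase whose start lies at -572.2 kb from that of Cdkn2a, had 1, 3 and 2 counts in the SCCVII line, against 2593, 2817 and 3628 in the HPV+ MEER line and 2907, 3344 and 3965 in the HPV- MEER line. SCCVII macrophages held 1113, 1027 and 1045 Klhl9 counts. The RNA-binding protein gene Elavl2 and the non-coding Wincr1 and Gm12602 averaged 4.87, 14.7 and 6.12 CPM in the HPV+ MEER line and 8.33, 16.7 and 5.98 CPM in the HPV- MEER line. They had 0 counts in SCCVII macrophages too, so for these 3 the strain and the line cannot be told apart. MEER macrophages also held little of them. In the same order they averaged 0.0199, 0.682 and 0.14 CPM in HPV- MEER macrophages and 0, 0.505 and 0.158 CPM in HPV+ MEER macrophages. The 0 counts in SCCVII macrophages thus say little of the strain.

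The nearest genes with at least 1 CPM in the SCCVII line lay on both sides of the stretch. On the lower side these were the pseudogene Mrpl48-ps (start at -694.8 kb from that of Cdkn2a, 592 counts), which had at most 0.229 CPM in all MEER groups and so gives no level to compare with, and, among coding genes, Hacd4 (-855.7 kb, 159.5 counts). Hacd4 in the SCCVII line stood at 26.7% of the HPV- MEER line but 1.08% of SCCVII macrophages. It averaged 1.65 CPM there and 0.0727 CPM in the HPV+ MEER line. Focad averaged 18.7 CPM in the SCCVII line and 22.3 CPM in the HPV+ MEER line. Focad reads could have been counted for Hacd4, as said above, and this was not tested. On the upper side the nearest gene was Gm12666, at 2897.1 kb, with 244.2 counts. Gm12666 had 0 counts in all MEER samples and 3.12 CPM in SCCVII macrophages, so it gives no level to compare with either. Beyond it the next gene to reach 1 CPM in any group was Tusc1, at 4040.9 kb. Tusc1 averaged 0.211 CPM in the SCCVII line, 5.51 CPM in HPV+ MEER, 1.73 CPM in HPV- MEER and 6.60 CPM in SCCVII macrophages. Where the stretch ends on the upper side is thus not shown. Between Mrpl48-ps and Gm12666 lay 61 annotated genes, of which only 8 reached a mean of 1 CPM in any group. In the SCCVII line 8 of the 61 had any count, 27.78 counts in sum, and these sets overlap only in part. Genes under 1 CPM in every group say little of the SCCVII line by having no count there. That stretch holds 9 genes whose symbols start with Ifn, for interferon, and none reached 1 CPM in any group, so the RNA says nothing of them. These are RNA counts, and whether DNA is missing in SCCVII cells was not measured. Among other genes of the window that were near 0 in a group, Acer2, a ceramidase gene, averaged 0.129 CPM in SCCVII, 0.214 CPM in HPV+ MEER and 3.72 CPM in HPV- MEER, and Zfp352 had 0, 0.164 and 1.91 CPM. Gm12415 averaged 3.29, 0.0578 and 0.0276 CPM in the same order of lines.

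**Figure D2:**
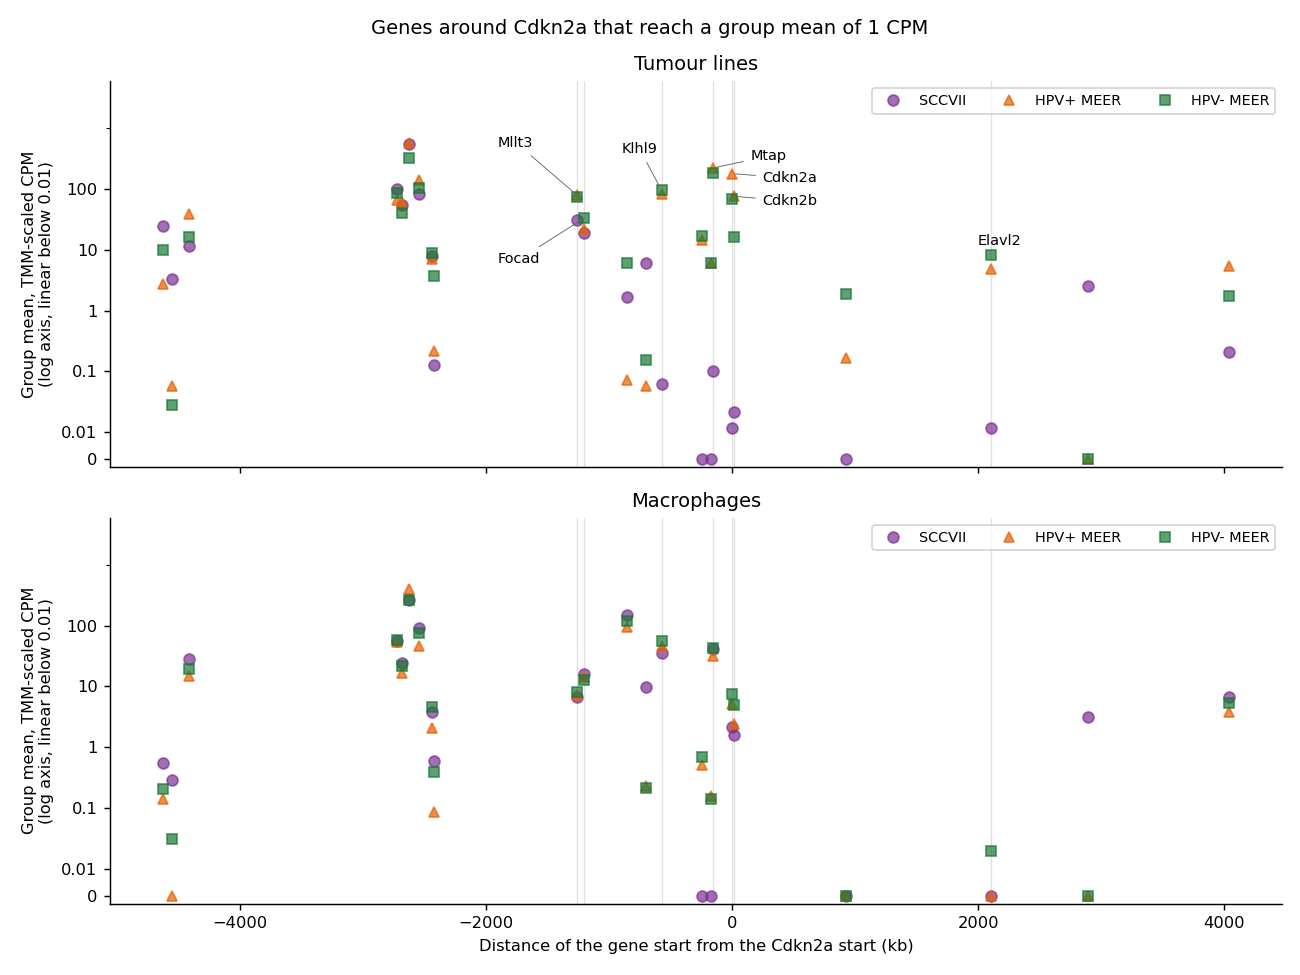
Group mean in TMM-scaled CPM (log axis, linear below 0.01) of the 23 genes near Cdkn2a that reach 1 CPM in any group, by distance of the gene start from the Cdkn2a start in kb, in the 3 lines (top) and in macrophages of the 3 models (bottom). From Klhl9 to Elavl2 the SCCVII line lies near 0 where both MEER lines hold reads, and in macrophages Klhl9, Mtap, Cdkn2a and Cdkn2b all hold reads in SCCVII (35.9, 41.8, 2.17 and 1.56 CPM).

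A different and stricter rule was put to all genes as a description, since it uses the SCCVII line counts. Most of the genes it gave lay outside this stretch. Across all chromosomes 8833 genes had at least 5 CPM in every MEER line library and at least 1 CPM in every SCCVII macrophage library. Of these 14 (0.159%) had under 3 counts in sum in the SCCVII line, on 9 chromosomes. On chromosome 4 they were Cdkn2a, Cdkn2b and Zfp984, the last at chr4:147753974-147809788. Mtap (10 counts) and Klhl9 (6 counts) lay just outside that limit and Cdkn2b and Zfp984 (2 and 2.3 counts) just inside.

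The partners of these genes in the SCCVII line are given as values only, since the line was part of the choice, and those named here were picked after their values were seen. Across 16588 genes, 20.4% lay below and 25.7% above all 6 MEER line libraries in each SCCVII line library. Of 6 genes of methionine salvage, the pathway that Mtap opens, 5 lay below: Mtap itself, Mri1, Apip, Enoph1 and Adi1. Adi1 averaged 17.4 ± 0.892 CPM in the SCCVII line, against 67.3 ± 1.23 CPM in HPV+ MEER and 56.6 ± 6.74 CPM in HPV- MEER (SD, n = 3 each). Apip averaged 9.74 ± 0.314 CPM in SCCVII, 23.0 ± 1.39 in HPV+ MEER and 24.1 ± 1.60 in HPV- MEER. Of 9 genes of the methionine cycle and PRMT5 complex, 4 lay above, among them Prmt5 (117 ± 1.70 CPM in SCCVII, 85.3 ± 2.38 in HPV+ MEER, 87.5 ± 14.4 in HPV- MEER) and Mat2a, which makes S-adenosylmethionine (259 ± 5.27, 170 ± 24.6 and 161 ± 10.8 CPM in the same order), and 2 lay below, Ahcy and Clns1a, a partner of Prmt5. Among 7 INK4 and CIP/KIP inhibitors Cdkn2c (p18Ink4c) lay above, at 27.6 ± 1.28 CPM in SCCVII, 20.1 ± 4.23 in HPV+ MEER and 12.7 ± 1.77 in HPV- MEER, and Cdkn2d lay below with Cdkn2a and Cdkn2b. Of 14 genes of the RB arm 7 lay below, among them Cdk4 and Ccnd1, and Rb1 lay above.

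Between the MEER lines, both cell-cycle inhibitor genes were higher in the HPV+ line. Cdkn2a stood at 213, 194 and 132 CPM in the HPV+ MEER line, against 45.0, 77.2 and 85.6 CPM in the HPV- MEER line. Every HPV+ library lay above every HPV- library, with a log2 fold change of 1.37 ± 0.25 (SE, n = 3 each, edgeR adjusted p = 0.0013). Cdkn2b stood at 99.4, 77.1 and 51.8 CPM in the HPV+ line and at 10.5, 17.3 and 21.9 CPM in the HPV- line. It also rose without overlap, by 2.19 ± 0.29 (edgeR adjusted p = 2e-04). Focad fell, with 20.6, 23.9 and 22.5 CPM in the HPV+ line against 44.4, 29.9 and 25.7 CPM in the HPV- line (log2 fold change -0.59 ± 0.18, edgeR adjusted p = 0.022). The HPV- values of Focad were spread widely, and the call was lost without HPV- library 1, where the log2 fold change was -0.33 (adjusted p = 0.051), and without HPV+ library 1 (adjusted p = 0.055) or 3 (0.051).

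Mtap had 209, 232 and 225 CPM in the HPV+ line and 188, 208 and 159 CPM in the HPV- line, nearly touching groups whose difference did not pass (log2 fold change 0.25 ± 0.11, adjusted p = 0.083). Without HPV- library 2 it passed (0.34, adjusted p = 0.035). Mllt3 overlapped between the lines, at 88.0, 79.5 and 72.9 CPM in HPV+ and 95.0, 65.8 and 61.2 CPM in HPV- (0.11 ± 0.16, adjusted p = 0.61). Without HPV- library 1 it passed too (0.33, adjusted p = 0.042). Dmrta1 did not reach the filter on low counts and was not tested in any comparison. Thus 3 of the 5 genes tested changed between the MEER lines, 2 higher and 1 lower, where 47% of all 14396 genes did, 23.2% higher and 23.9% lower.

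The lists of pathway genes around Cdkn2a and Cdkn2b are given between the MEER lines as counts, to be read beside the 47% of all genes that changed. Of 7 INK4 and CIP/KIP inhibitors, 2 of them the genes above, 6 rose and 1 fell, with a median log2 fold change of 0.67 beside -0.01 over all genes tested. Cdkn1c (p57Kip2) rose to 0.600, 1.95 and 2.42 CPM in the HPV+ line, against 0.0329, 0 and 0.0735 CPM in the HPV- line (edgeR adjusted p = 0.00037). Cdkn1a (p21), a p53 target, was the 1 that fell, by 1.12 on the log2 scale (SE 0.21, edgeR adjusted p = 0.0014). In the RB arm 6 of 14 genes rose and 2 fell (median 0.16), with E2f2 (2.06 ± 0.32) and cyclin Ccne2 (1.31 ± 0.24) the largest rises and the D-type cyclins Ccnd1 (-0.84 ± 0.15) and Ccnd2 (-0.65 ± 0.12) the falls. In the ARF-p53 arm 1 of 7 rose and 5 fell (median -0.46). Mdm2, the ligase that degrades p53, stood at 207, 160 and 199 CPM in the HPV+ line, against 3305, 4055 and 2761 CPM in the HPV- line. The groups were far apart, with a log2 fold change of -4.17 ± 0.17 (edgeR adjusted p = 8.5e-08). Its relative Mdm4 fell by 0.68 (SE 0.13), Trp53 itself fell by 0.29 (SE 0.09), and the ligase Huwe1 rose (0.69 ± 0.15).

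Of 11 tested Polycomb genes and other repressors of the locus 3 rose and 3 fell (median -0.08). Ezh2, the Polycomb methyltransferase, rose by 1.56 ± 0.11 and Cbx7 by 1.13 ± 0.29, while Tbx3 fell by 3.30 (SE 0.32) and Kdm2b by 0.36 (SE 0.11). Of 8 activators 3 rose, led by the demethylase Kdm6b (0.73 ± 0.10) and Smad2 (0.52 ± 0.10), and 1 fell, Ets1 (-0.74 ± 0.17). Of 6 methionine salvage genes Got1 alone fell (-0.79 ± 0.14), of 7 polyamine genes Odc1 alone rose (0.60 ± 0.18), and of 9 genes of the methionine cycle and PRMT5 complex Mtrr alone rose (0.56 ± 0.10). Their medians were -0.19, 0.04 and 0.07. None of 3 SKI complex genes changed (median 0.02, adjusted p 0.57 to 0.94 in edgeR). In the super elongation complex and DOT1L list 3 of 9 rose and 1 fell (median 0.12), with Ell2 (0.48 ± 0.14) and Mllt1 (0.36 ± 0.11) up and Ell down (-0.58 ± 0.11).

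In macrophages the genes were all lower than in the line of the same model, where the line held them. Cdkn2a fell to 4.61, 6.63 and 4.12 CPM in HPV+ MEER macrophages, a log2 fold change of -4.97 ± 0.45 against the HPV+ MEER line (edgeR adjusted p = 4e-08). On that scale Cdkn2b stood at -4.83 ± 0.44, Mllt3 at -3.32 ± 0.18, Mtap at -2.64 ± 0.10 and Focad at -0.49 ± 0.14. In HPV- MEER macrophages against their line, the values were -3.07 ± 0.18 for Mllt3, -3.06 ± 0.41 for Cdkn2a, -1.98 ± 0.09 for Mtap, -1.64 ± 0.38 for Cdkn2b and -1.26 ± 0.14 for Focad. Without HPV- MEER macrophage library 4, described below, Cdkn2a was at -3.92 and Cdkn2b at -2.36. All 5 genes tested were lower in both models without overlap. Of all 15835 genes 78.8% passed in HPV+ MEER, 39.1% lower, and 76.1% in HPV- MEER, 37.4% lower. On TPM, where the median gene was at -0.84 in HPV+ MEER and -0.41 in HPV- MEER, Focad was at -1.45 and -1.54. In bulk RNA, fewer cells of a type and less RNA per cell cannot be told apart.

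Among macrophages, Mtap was lower in HPV+ MEER than in both other models. It stood at 30.3, 33.9 and 30.9 CPM in HPV+ MEER macrophages, against 44.1, 41.8 and 43.2 CPM in HPV- MEER macrophages. The groups did not overlap (log2 fold change -0.42 ± 0.07, edgeR adjusted p = 0.00077). SCCVII macrophages, at 39.3, 42.4 and 43.7 CPM, lay above HPV+ MEER macrophages (0.36 ± 0.07, edgeR adjusted p = 0.0011) and overlapped HPV- MEER macrophages (-0.06 ± 0.07, adjusted p = 0.50). With TPM in place of CPM both gaps of HPV+ MEER were wider, at -0.71 and 0.66 on the log2 scale, where the median gene was itself at -0.32 and 0.29. In a fit of all 23 libraries, whose spread includes the uneven colonies, both calls were lost (adjusted p 0.52 and 0.51). Mtap was the 1 gene of the 5 that changed between HPV+ and HPV- MEER macrophages, where 48.7% of 14085 genes did.

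Cdkn2a and Cdkn2b were lowest in SCCVII macrophages. Cdkn2a had 1.58, 2.55 and 2.39 CPM in SCCVII macrophages, 4.61, 6.63 and 4.12 CPM in HPV+ MEER macrophages, and 4.47, 3.89 and 14.5 CPM in HPV- MEER macrophages. SCCVII lay below both without overlap. The log2 fold change was -1.84 ± 0.50 against HPV- MEER (edgeR adjusted p = 0.016) and -1.28 ± 0.50 against HPV+ MEER (edgeR adjusted p = 0.047). The call against HPV+ MEER was lost when any 1 library of either group was left out (adjusted p 0.06 to 0.14). Against HPV- MEER it was lost without SCCVII library 1 (-1.65, adjusted p = 0.066). The 8 epithelial markers summed to 159 to 197 TPM in HPV+ MEER macrophages, 41.0 to 124 TPM in HPV- MEER and 71.6 to 77.0 TPM in SCCVII macrophages. In the lines they summed to 1829 to 2410, 369 to 598 and 1197 to 1351 TPM in the same order. Cdkn2a averaged 180, 69.3 and 0.0119 CPM in those lines. The part of tumour cells in the macrophage levels of Cdkn2a and Cdkn2b was not tested.

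Cdkn2b had 1.61, 1.79 and 1.3 CPM in SCCVII macrophages, 2.07, 3.12 and 1.96 CPM in HPV+ MEER macrophages, and 3.11, 2.77 and 8.77 CPM in HPV- MEER macrophages. It was lower in SCCVII than in HPV- MEER macrophages (-1.67 ± 0.45, edgeR adjusted p = 0.016), a call lost without SCCVII library 1 (adjusted p = 0.05) or 3 (0.061). Against HPV+ MEER it did not pass (-0.65 ± 0.45, adjusted p = 0.23), though the groups did not overlap, and it passed without HPV- MEER library 4 (adjusted p = 0.038). Focad was higher in SCCVII macrophages (15.9, 15.5 and 15.8 CPM) than in HPV- MEER macrophages (12.8, 12.2 and 13.2 CPM), by 0.29 ± 0.08 (edgeR adjusted p = 0.014), and Hacd4 on its other strand averaged 150 and 119 CPM in these groups. The Focad call was lost in the fit of all 23 libraries (adjusted p = 0.18). Mllt3 overlapped among all macrophage groups. Of the 5 genes, 3 changed between SCCVII and HPV- MEER macrophages and 2 between SCCVII and HPV+ MEER macrophages, beside 39.2% and 63.2% of 14085 genes.

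The third HPV- MEER macrophage library, numbered 4, stood apart in the inhibitor genes. Its 14.5 CPM of Cdkn2a lay beside 4.47 and 3.89 CPM in libraries 1 and 2, and its 8.77 CPM of Cdkn2b beside 3.11 and 2.77 CPM. Other genes were high in this library too. Mdm2 was at 232.5 CPM in library 4, with 114 and 85.8 CPM in libraries 1 and 2 and 2761 to 4055 CPM in the line. Krt8 was at 56.1 TPM, with 18.2 and 11.4 TPM in the others. Summed over 8 epithelial markers, library 4 had 124 TPM and libraries 1 and 2 had 58.3 and 41.0 TPM, with 3 of 8 markers at 1 TPM in each and Krt5 at 0 in all 3. Fibroblast markers summed to 41.5 TPM in library 4 and to 19.0 and 12.6 TPM in libraries 1 and 2, with 6 of 8 at 1 TPM in library 4 and 3 in each of the others. Among them was Dcn at 6.40 TPM, with 2.05 and 0.86 TPM in the others and 0.25 to 0.64 TPM in the HPV- MEER line. The part of these markers in the result was not tested. Without library 4 the log2 fold change of Cdkn2a in SCCVII against HPV- MEER macrophages was -0.96 (adjusted p = 0.014) and that of Cdkn2b -0.92 (adjusted p = 0.017). In HPV+ against HPV- MEER macrophages, where neither gene passed (Cdkn2a -0.56 ± 0.48, Cdkn2b -1.02 ± 0.44), Cdkn2a then turned to 0.32, and without library 2 Cdkn2b passed (-1.30, adjusted p = 0.033).

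The change from HPV- to HPV+ MEER in these genes differed between the lines and the macrophages. The difference of the log2 fold changes, line minus macrophages, was 3.19 ± 0.56 for Cdkn2b (edgeR adjusted p = 0.00027), 1.91 ± 0.56 for Cdkn2a (0.013), 0.66 ± 0.13 for Mtap (6e-04) and -0.77 ± 0.20 for Focad (0.0059). Thus 4 of 5 genes passed, where 41% of 15835 genes did. Cdkn2b and Cdkn2a were higher in the HPV+ line and did not pass in HPV+ macrophages, and Mtap passed in the macrophages and not in the line. Without HPV- MEER macrophage library 4 the value of Cdkn2a was 1.08 (adjusted p = 0.035) and that of Cdkn2b 2.5 (0.00022). In the fit of all 23 libraries the adjusted p of Cdkn2a was 0.057 and that of Mtap 0.44.

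**Figure D3:**
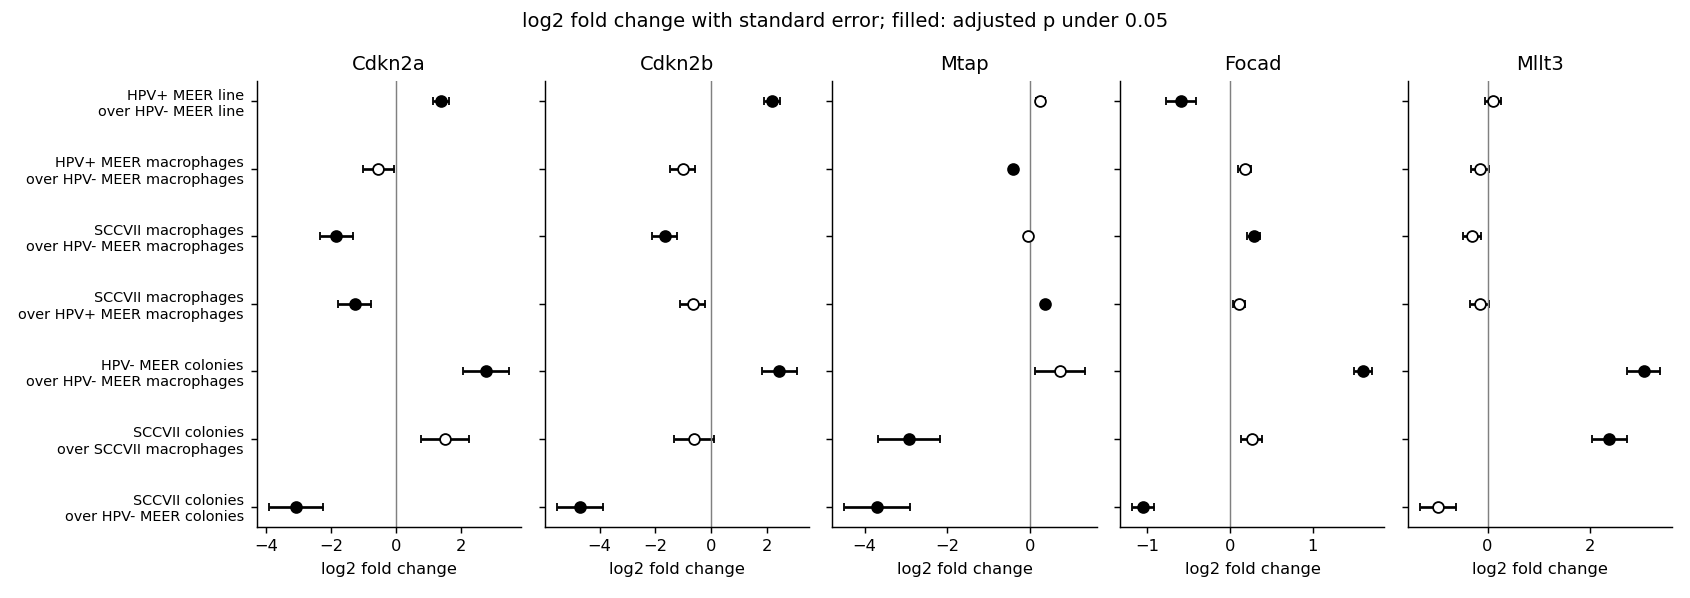
log2 fold change (point) with its standard error (bar) of the 5 tested genes in 7 comparisons, filled where edgeR's adjusted p is under 0.05. Cdkn2a and Cdkn2b lie right of 0 in the HPV+ MEER line (1.37 and 2.19) and left of 0 in SCCVII macrophages (-1.84 and -1.67 against HPV- MEER).

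In HPV- MEER colonies 4 of the 5 genes were higher than in the macrophages of that model. Cdkn2a stood at 43.3, 57.2 and 56.5 CPM in HPV- MEER colonies, against 4.47, 3.89 and 14.5 CPM in HPV- MEER macrophages (log2 fold change 2.76 ± 0.69, edgeR adjusted p = 0.0076). Cdkn2b rose by 2.46 ± 0.62 (0.0075), Mllt3 by 3.06 ± 0.33 (0.00013) and Focad by 1.61 ± 0.11 (3.1e-05), all without overlap. Without macrophage library 4 Cdkn2a was at 3.68 and Cdkn2b at 3.25. Mtap had 48.7, 81.9 and 86.0 CPM in the colonies and did not pass (0.72 ± 0.60, adjusted p = 0.31). When either SCCVII colony was left out of the fit, Mtap passed (0.71, adjusted p = 0.008). Of 16238 genes 62.7% passed, 34% higher. The epithelial markers moved the same way, with 425 to 597 TPM over the 8 in HPV- MEER colonies and 41.0 to 124 TPM in the macrophages, and their part in the result was not tested. Without the low-marker colonies, with colony 1 alone, all 5 genes passed, at 2.62 for Cdkn2a (adjusted p = 0.015), 2.04 for Cdkn2b (0.024), 0.29 for Mtap (0.026), 1.74 for Focad (8.6e-05) and 2.23 for Mllt3 (0.00064). Colony 1 held 1326 TPM over 7 neutrophil markers, all at 1 TPM or more, against 36.4 to 49.0 TPM in HPV- MEER macrophages, and its fibroblast markers summed to 222 TPM, against 12.6 to 41.5 TPM. The part of these markers was not tested either. Each value without the low-marker colonies rests on 1 library a group and takes its spread from the other groups. For SCCVII that library is colony 1, itself far below SCCVII macrophages in Itgam and Adgre1.

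SCCVII colonies had little Mtap. It stood at 10.2 and 0.930 CPM in SCCVII colonies, against 39.3, 42.4 and 43.7 CPM in SCCVII macrophages, with a log2 fold change of -2.93 ± 0.76 (n = 2 and 3, edgeR adjusted p = 0.011). Without the 3 low-marker colonies it was -2.05 (adjusted p = 1.6e-05). Klhl9 had 52.5 and 3.24 CPM in the same colonies, against 34.0 to 38.1 CPM in SCCVII macrophages. Mllt3 rose in SCCVII colonies, to 32.3 and 37.0 CPM against 6.15 to 6.89 CPM in SCCVII macrophages (2.39 ± 0.34, edgeR adjusted p = 0.00047, and 2.26 without the low-marker colonies). The SCCVII line held 30.6 ± 1.34 CPM of Mllt3 and 0.10 ± 0.025 CPM of Mtap (SD, n = 3). Fibroblast markers summed to 1089 and 1045 TPM in SCCVII colonies, against 5.79 to 7.53 TPM in SCCVII macrophages and 863 to 938 TPM in the SCCVII line. Single markers did not follow the sum, with Dcn at 97.5 and 406 TPM in SCCVII colonies and 3.10 to 3.59 TPM in the SCCVII line. Epithelial markers summed to 154 and 277 TPM in SCCVII colonies, 71.6 to 77.0 TPM in SCCVII macrophages and 1197 to 1351 TPM in the SCCVII line. The part of these markers in the result was not tested.

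Cdkn2a had 10.7 and 1.62 CPM in SCCVII colonies and overlapped SCCVII macrophages (1.49 ± 0.74, adjusted p = 0.12). Its direction hung on the library, since it was 2.29 without colony 2 (adjusted p = 0.021) and -0.41 without colony 1. Cdkn2b, at 1.80 and 0.300 CPM, overlapped too (-0.61 ± 0.72, adjusted p = 0.50), and was lower without colony 1 (-2.36, adjusted p = 0.044). So 2 of 5 genes changed, beside 51.9% of 16238 genes. Without the 3 low-marker colonies 4 changed, Cdkn2a (2.28, adjusted p = 0.027) and Focad (0.36, adjusted p = 0.026) being the others.

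Set against HPV- MEER colonies, SCCVII colonies were lower in Cdkn2b (-4.72 ± 0.83, edgeR adjusted p = 0.0024), Mtap (-3.69 ± 0.79, 0.0061), Cdkn2a (-3.09 ± 0.83, 0.017) and Focad (-1.05 ± 0.13, 0.00044), each without overlap. Mllt3 did not pass (-0.97 ± 0.35, adjusted p = 0.052), but did without HPV- MEER colony 1 (-1.34, adjusted p = 0.0011) or HPV- MEER macrophage library 4 (-1.04, adjusted p = 0.037), and stood at -0.26 without the low-marker colonies (adjusted p = 0.56). Thus 4 of 5 genes passed, all lower, where 40.4% of 16238 did, 19.9% lower. The deposited table differs between these colony groups as well, and its part was not tested. Without the 3 low-marker colonies Mtap stood at -2.39 (adjusted p = 5.4e-05), Cdkn2b at -3.51 (0.02) and Focad at -1.08 (0.0014), and Cdkn2a no longer passed (-2.15, adjusted p = 0.11). Without SCCVII colony 2 alone Cdkn2a was at -2.28 (adjusted p = 0.055). The change to the colony differed between the models for Mtap (SCCVII minus HPV- MEER, -3.65 ± 0.95, edgeR adjusted p = 0.024), Cdkn2b (-3.07 ± 0.95, 0.045) and Focad (-1.35 ± 0.17, 0.0012), where 24.1% of genes passed. Without the low-marker colonies Mtap was at -2.34 (adjusted p = 0.00011) and Focad at -1.38 (0.0012), and Cdkn2b no longer passed (-1.86, adjusted p = 0.18). With both kept, the Mtap call was lost without HPV- MEER macrophage library 1 or 2 or SCCVII macrophage library 2 or 3 (adjusted p 0.051 to 0.054), and that of Cdkn2b in 8 of the 11 fits that left out 1 library (adjusted p 0.074 to 0.096).

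**Figure D4:**
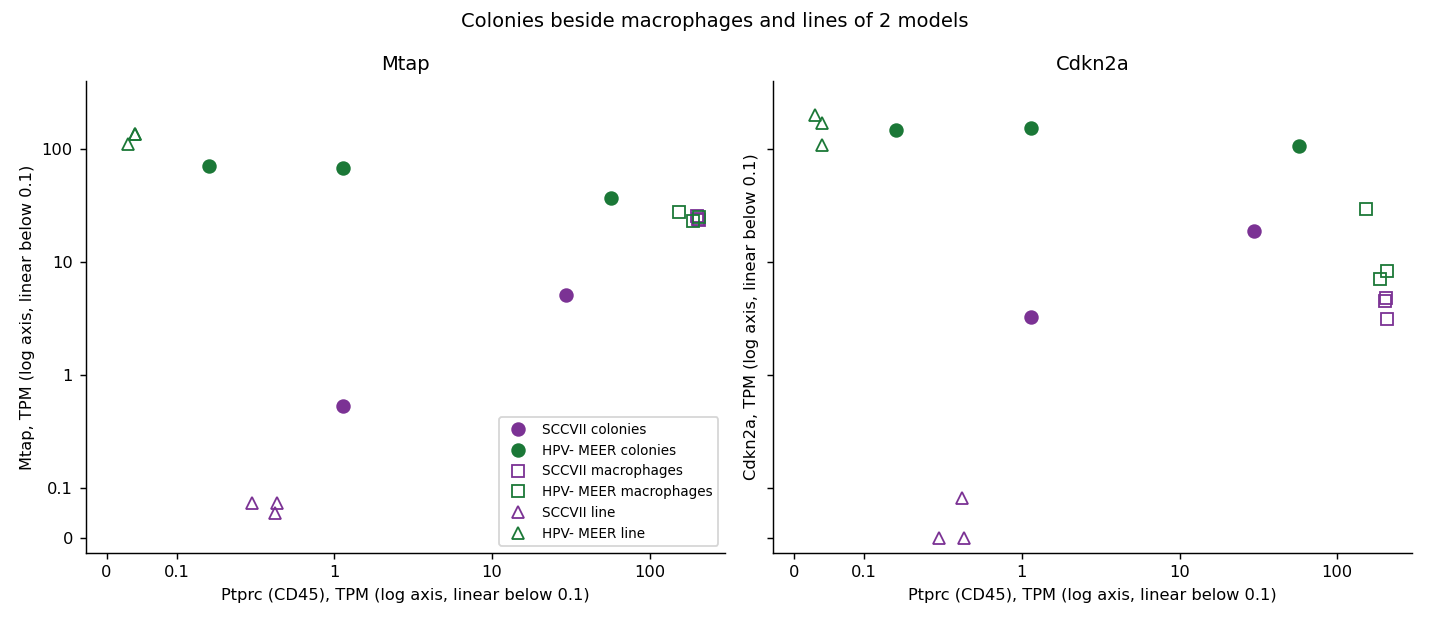
TPM of Mtap (left) and Cdkn2a (right) in each library against TPM of Ptprc (CD45), both on log axes that are linear below 0.1, for SCCVII and HPV- MEER colonies (filled), macrophages (squares) and lines (triangles). HPV- MEER colonies keep 36.6 to 70.0 TPM of Mtap at every CD45 level, while SCCVII colonies hold 5.11 and 0.53 TPM.

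The deposited table also gave, for each library, a mean length of the Cdkn2a transcripts weighted by their abundance, and this varied by group. It was 895 bases in 3 macrophage libraries and 850 bases in the SCCVII line library with a single Cdkn2a read, the longer being the length of the exon 1-beta (p19Arf) transcript in GENCODE M21. Another transcript, of 929 bases, is implied if the 891.33 bases given where no read was found are a plain mean of 3. Any mean under 895 then needs some of the 850-base transcript. The exon 1-alpha (p16Ink4a) transcript has 852 bases in GENCODE M21, and since the authors' annotation release is not given in the sources used here, which first exon the 850-base transcript carries could not be settled. In SCCVII colonies at least 91.3 and 88.6% of Cdkn2a RNA was the 850-base transcript, from 275 and 54 counts. In HPV- MEER colonies that minimum was 20.0, 18 and 24.6%. SCCVII macrophages had minima of 9.33, 0 and 4.29%, HPV+ MEER macrophages 0, 3.84 and 0%, and HPV- MEER macrophages 20.6, 22.8 and 27.7%. The HPV+ MEER line had 1.56, 1.51 and 2.69% and the HPV- MEER line 13.0, 23.5 and 28.2%. The minima of HPV- MEER samples of all 3 kinds thus ran from 13.0 to 28.2%, and those of both HPV+ MEER kinds from 0 to 3.84%. A minimum sets no upper limit, since a mean near 895 bases can also come from a mixture of the shorter and longer transcripts. These minima come from RSEM's split of reads, in macrophages from 46 to 485 counts a library, and no error was given with the lengths, so they were not tested.

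**Figure D5:**
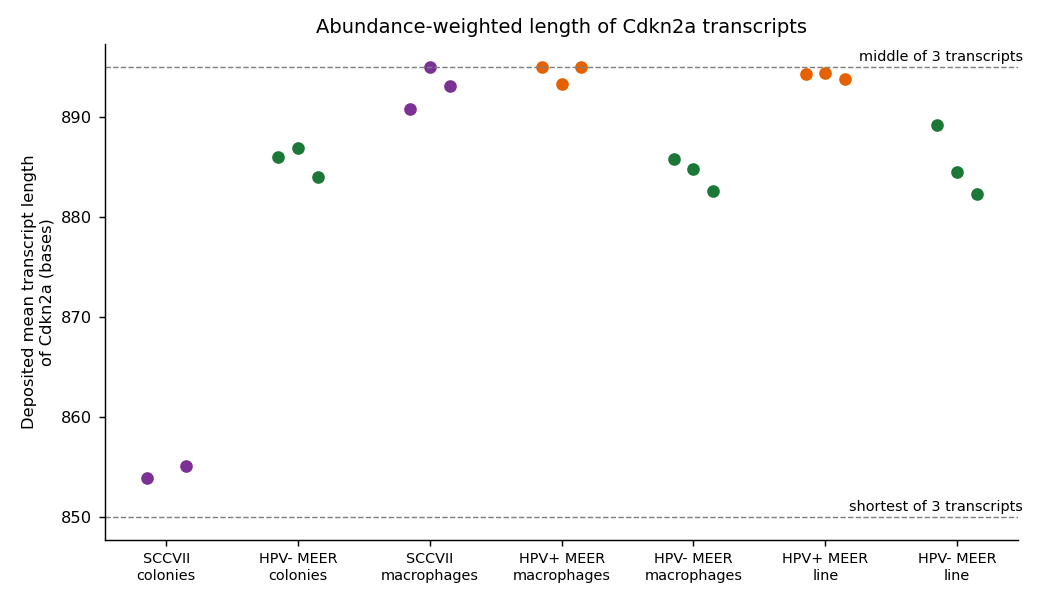
Deposited abundance-weighted length of Cdkn2a transcripts (bases) in each library of the 7 groups with Cdkn2a reads, with the 2 transcript lengths as dashed lines. SCCVII colonies lie near the 850-base transcript, HPV+ MEER samples near 895 bases and HPV- MEER samples between them. The axis does not start at 0.

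The ratio of Cdkn2a to Cdkn2b, in TPM, also went by group. It was 3.44, 4.05 and 4.11 in the HPV+ MEER line and 6.93, 7.25 and 6.39 in the HPV- MEER line, so Cdkn2b was the closer to Cdkn2a in the HPV+ line. In macrophages it was 1.58, 2.29 and 2.97 in SCCVII, 3.56, 3.42 and 3.38 in HPV+ MEER and 2.33, 2.29 and 2.69 in HPV- MEER. SCCVII colonies had 10.1 and 9.20, on 46 and 10 Cdkn2b counts, and HPV- MEER colonies 3.78, 3.13 and 2.71.

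Over all 23 libraries, the gene whose pattern was most like that of Cdkn2a was its neighbour Cdkn2b, with a Pearson correlation of 0.975 on log2(CPM + 1) among 16588 genes. Krt19, Zfp334, Ptprn and Pitx1 followed, at 0.967, 0.961, 0.952 and 0.951. For Mtap the nearest were Fam84b (0.978), the neighbour Klhl9 (0.94), Trim44 (0.939), Ttc30a1 (0.934) and Miga1 (0.932). Cdkn2a and Mtap correlated at 0.842 and Mtap and Mllt3 at 0.235. The libraries of a group share their source and the SCCVII line was part of the choice, so these values describe the 8 groups and carry no test.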

How the data were processed

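Bulk RNA sequencing was measured in 23 mouse libraries, grouped by the labels alone. The authors deposited expected counts (reads divided among transcripts, which need not be whole), TPM and a gene length per library, in 2 tables with RSEM column headers, of which the second holds the HPV- MEER colonies. Tools listed in the submitters' processing notes are STAR (2.5.3a), RSEM (1.3.0), MultiQC and FastQC, with the builds mm10 and GRCm38. What each did, the strand setting and the annotation release are not stated in those sources. Of 36793 Ensembl identifiers 35243 (95.8%) matched a GENCODE M21 symbol, and coordinates are 1-based from that release. Sequences are from its transcripts.

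Counts (26848759 to 47609481 a library, 13.1% of values not whole) were rounded and tested with edgeR 4.0.16 in R 4.3.3: filterByExpr (minimum count 10, minimum total 15), TMM, quasi-likelihood test, prior count 0.125 and Benjamini-Hochberg adjustment over all genes at 0.05. Lines, macrophages, both together, and colonies with macrophages had a fit each, with biological coefficients of variation of 18.1, 16, 17.6 and 40.2%. CPM used TMM over 17014 genes. DESeq2 1.42.0 was an alternative. The fits were tested on simulated data. Intervals are exact at 95% and cover counting error only, with a floor of 3 counts.

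The 6 genes, the 10 gene lists and the tests were chosen with earlier results of these data known. Named genes were the 6, genes within 5 Mb at 1 CPM or more in a group and under 0.1 CPM in another with the nearest expressed neighbours, up to 2 risers and 2 fallers of each list between the MEER lines, the 5 most similar patterns to Cdkn2a and to Mtap, and chromosome 4 genes with under 3 counts in the SCCVII line, at least 5 CPM in every MEER line library and at least 1 CPM in every SCCVII macrophage library. Trp53 and the list genes given for the SCCVII line were chosen after their values were seen. Same-numbered libraries did not deviate together (correlations -0.113 to 0.074 in lines and macrophages, and -0.127 to 0.345 in the fit of colonies and macrophages, where 3 of 13 pairs were over 0.1), so numbers were not taken as pairs.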

Additional observations from a re-analysis of the deposited data

Results flagged for a closer look

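The change from HPV- to HPV+ MEER differed between the tumour line and the macrophages, by a test of the difference itself, for 4 of the 5 genes tested. Line minus macrophages, on the log2 scale, it was 1.91 for Cdkn2a, 3.19 for Cdkn2b, 0.66 for Mtap and -0.77 for Focad. The change of colonies over macrophages likewise differed between SCCVII and HPV- MEER, by -3.07 for Cdkn2b, -3.65 for Mtap and -1.35 for Focad on the log2 scale. Markers of epithelial cells and fibroblasts in the colonies, the strain, and the separate deposited table of the HPV- MEER colonies move with the second set. Their part was not tested.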

How the results depend on the processing

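Of 5 genes tested (6 where Dmrta1 passed the filter), the number called was the most changeable in macrophages. HPV+ against HPV- MEER macrophages gave 1, but 2 with DESeq2's size factors and 0 with all 23 libraries in 1 fit, and 1 to 2 with single libraries left out. SCCVII against HPV+ MEER macrophages gave 2, but 0 with all 23 libraries, and 1 to 3 with single libraries left out. SCCVII against HPV- MEER macrophages gave 3, and 1 to 3 with single libraries left out. The HPV difference between line and macrophages gave 4, but 2 with all 23 libraries. The colony difference gave 3, and 1 to 4 with single libraries left out. SCCVII colonies over macrophages gave 2, but 4 without the low-marker colonies, a setting chosen after seeing the data. Lines gave 2 to 4 and the other comparisons 3 or more under every setting.

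The numbers of the libraries were not taken as pairs, since not every same-numbered pair deviated together, and a fit with the replicate number as a block left the colony difference at 1 call (Mtap -3.77, adjusted p = 0.11, and Cdkn2b -3.92, adjusted p = 0.064, were lost), took Cdkn2a out of the HPV difference (1.05, adjusted p = 0.05), and moved no other count by over 1.5 times. With the block, uncalled values changed sign in HPV+ against HPV- MEER macrophages, to 0.34 for Cdkn2a and 0.063 for Mllt3 on the log2 scale, and to -0.014 for Mllt3 in the HPV difference.

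Other reversals were also of uncalled values. In HPV+ against HPV- MEER macrophages without HPV- library 4, Cdkn2a turned to 0.32 and Mllt3 to 0.093, with ranges over left-out libraries of -0.87 to 0.32 and -0.29 to 0.093. Between lines without HPV- library 3, Mllt3 turned to -0.002. In SCCVII colonies over macrophages, Cdkn2a turned to -0.41 without colony 1 (range -0.41 to 2.29), and Cdkn2b to 0.18 without colony 2 (range -2.36 to 0.18) and 0.18 without the low-marker colonies. Mllt3 in the colony difference turned to 0.035 without the low-marker colonies. The causes were not tested. On TPM the median of all genes moved to 0.15 between lines, 0.43 in HPV- MEER colonies over macrophages and -0.52 between colonies, and no called change of the 5 genes turned. TPM turned uncalled ratios of Focad in HPV+ against HPV- MEER macrophages (to -0.36) and of Mllt3 in SCCVII against HPV+ MEER macrophages (to 0.31). Depth limits Cdkn2a and Cdkn2b in macrophages (38 to 485 counts a library) and Cdkn2b and Mtap in SCCVII colony 2 (10 and 31 counts).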
